A study of Sus scrofa with 8 samples.

Results

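De novo lipogenesis was followed at the level of transcripts through 10 genes, 8 of them enzymes, one a transcription factor and one a regulatory nuclear protein. The genes were ACLY, ACSS2, ACACA, ACACB, FASN, ELOVL6, SCD, ME1, MLXIPL and THRSP. They were taken by their symbols from a table of 18103 genes measured by RNAseq in pig liver, each symbol had 1 row, and all 10 passed the filter on low values. Livers came from male Landrace x Large White pigs. The control group (healthy, here the initial state) was sampled at 4 months of age before the dietary change, and the steatosis group at 6 months, after 2 months on a diet rich in saturated fat, fructose, cholesterol and cholate and poor in methionine and choline. Each group held 4 libraries, and each library was a pool of RNA from 2 pigs, so n = 4 is a number of pools and the SD given below is the spread between pools. Per the study's methods, both groups are the same animals, all samples were taken after an overnight fast, the initial samples were surgical biopsies, and the final ones were taken at euthanasia. No library came from pigs of the older age on the control diet. Diet, age and way of sampling therefore cannot be told apart.

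De novo lipogenesis turns surplus carbohydrate into fat. Citrate exported from mitochondria, or free acetate, is made into cytosolic acetyl-CoA by ACLY and ACSS2, a carboxylase turns this into malonyl-CoA, FASN builds palmitate from both with NADPH as reductant, and ELOVL6 and SCD lengthen and desaturate the product. In liver the genes are switched on together after a carbohydrate meal by SREBP-1c, which answers to insulin and to the oxysterol receptor LXR, and by ChREBP, which answers to sugar. Pigs make most of their fatty acids in adipose tissue rather than in liver.

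Among the libraries, pool 1 of the initial state stood apart. It held transcripts of skeletal muscle and stomach mucosa at summed levels of 2894 and 1492 FPKM (fragments per kilobase of transcript, scaled to the mapped fragments), against at most 22 and 28.6 FPKM in any other pool. Of the 7 adipocyte markers, adiponectin, leptin, CIDEA and LIPE were highest in this pool alone. RETN shared its highest value of 0.12 FPKM with initial pool 3 and steatosis pool 1, and PLIN1 and ADRB3 were higher in other pools. Adiponectin (ADIPOQ) measured 27.9 FPKM there and at most 0.6 FPKM elsewhere, and leptin (LEP) was listed at 0 in every pool but this one. In the steatosis pools the summed adipocyte markers lay between 2.82 and 3.64 FPKM, inside the range of 2.36 to 4.7 FPKM of initial pools 2 to 4. Hepatocyte markers were abundant in every pool, with sums between 57900 and 89690 FPKM in the initial state and between 49866 and 59490 FPKM in steatosis. Of the 7 macrophage markers, 5 were higher in all steatosis pools than in any initial pool, as were 29.6% of all tested genes. CD163 and C1QA overlapped between the groups. The sum of the 7 moved from between 243.9 and 344.3 to between 386.5 and 493 FPKM. The part of these other cells in the levels below was not tested, and in whole tissue fewer cells of a type cannot be told apart from less RNA per cell. As a general shift, the 13175 tested genes had a median log2 fold change of 0.25, and scaling the libraries by the median ratio, taken against their mean, brought it to -0.01. The fold rule of the study asks for an adjusted p under 0.01 together with a change beyond 1 on the log2 scale. By it 792 genes were higher and 44 lower with FPKM as deposited, and 408 and 84 with that scaling.

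The calls were not the same for all 10 genes, and a gene that did not pass is not thereby shown to be unchanged. SCD, THRSP and ACACA rose under both call rules used here, ACSS2 and ELOVL6 fell at an adjusted p under 0.05 with a change of less than 2-fold, and FASN, ACLY, ACACB, ME1 and MLXIPL did not pass. By the fold rule of the study, 3 of the 10 genes were higher and 0 lower in steatosis, where 6.01% and 0.334% of all tested genes were. By the rule of an adjusted p under 0.05 with no limit on the fold, 3 were higher and 2 lower, against 26.7% and 2.28% of all tested genes. At an unadjusted p under 0.05 in limma the same 3 and 2 genes passed. The share of all tested genes at that limit was not counted, so nothing is drawn from this count. The pools of the groups did not overlap for 3 genes, the same that rose, and for 0 genes in the other direction, where 29.6% of tested genes were higher and 2.53% lower with no overlap. Without initial pool 1, again 3 genes were higher and 0 lower by the fold rule (6.03% and 0.298% of all tested genes), and by adjusted p alone 4 were higher, with ME1 added, and 1 lower, ELOVL6 (23.7% and 2.14%). With scaling by the median ratio, 2 were higher (SCD and THRSP) and 0 lower by the fold rule (3.11% and 0.641% of all tested genes), and 3 were higher and 3 lower, with ACLY added, by adjusted p alone (11.6% and 9.85%). The median log2 fold change of the 10 genes was 0.17, beside 0.25 over all tested genes. Adjusted p values are from limma with Benjamini-Hochberg adjustment over all 13175 genes, and log2 fold changes are on the scale of log2(FPKM + 0.1).

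**Figure D1:**
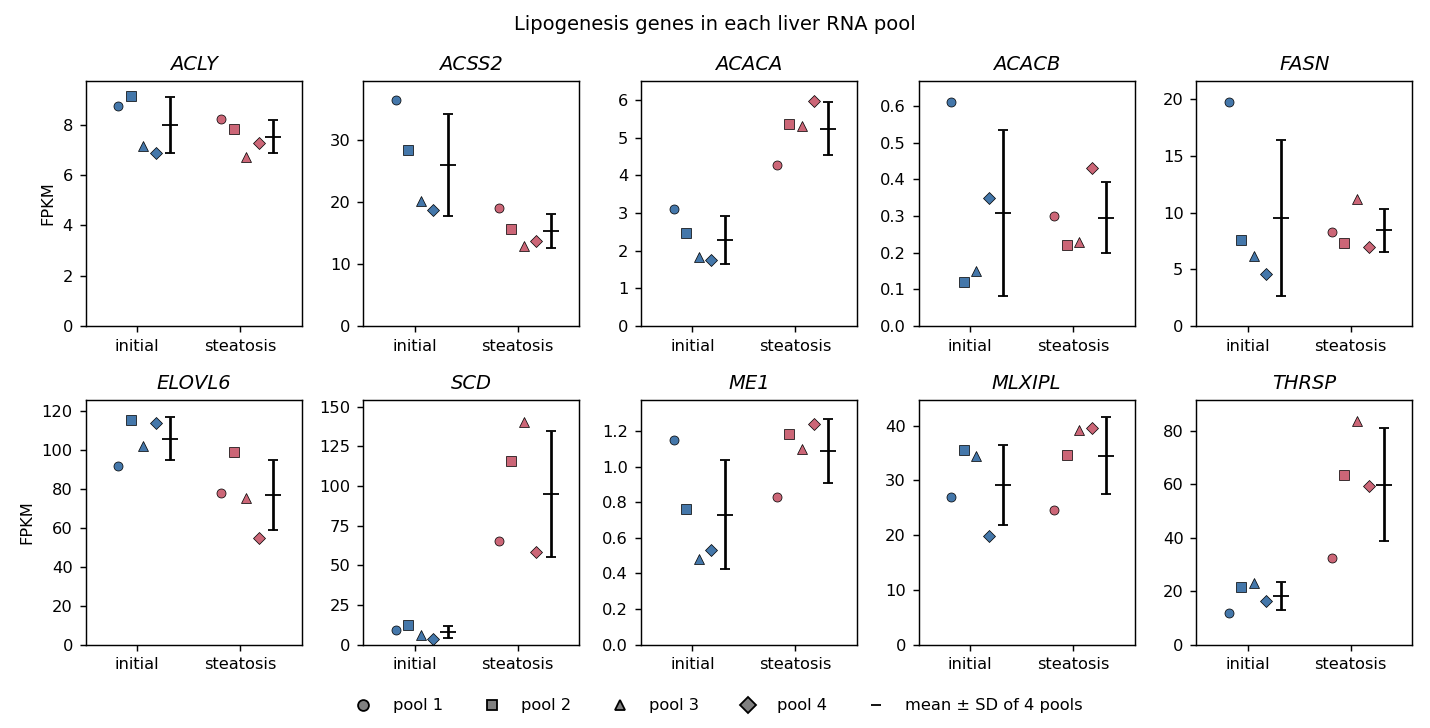
FPKM of the 10 lipogenesis genes (y axis, from 0, a separate scale for each gene) in the 4 initial and the 4 steatosis pools, with a symbol for each pool number and a black mark for the mean and SD of the 4 pools. SCD, THRSP and ACACA lie above all initial pools in every steatosis pool, whereas FASN and ACACB of initial pool 1 stand above the other initial pools.

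The supply of cytosolic acetyl-CoA comes first. ACLY (gene 100125957, chromosome 12 of Sscrofa11.1, 20796678 to 20841301), the ATP citrate lyase that splits exported citrate, measured 8.73, 9.15, 7.17 and 6.88 FPKM in initial pools 1, 2, 3 and 4 and 8.24, 7.84, 6.73 and 7.28 FPKM in the steatosis pools. The groups overlapped almost fully, and ACLY had the narrowest spread of the 10 genes in steatosis (coefficient of variation 8.76%). Its log2 fold change was -0.08 ± 0.12 (SE, limma adjusted p = 0.666). With libraries scaled by the median ratio ACLY was lower by the looser rule, at a log2 fold change of -0.35 (adjusted p = 0.0409).

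ACSS2 (gene 100153866, chromosome 17, 38260152 to 38315764), the cytosolic acetyl-CoA synthetase that uses free acetate, measured 36.5, 28.5, 20.2 and 18.7 FPKM before the diet and 19.2, 15.7, 12.9 and 13.8 FPKM after it. Every steatosis pool was below the initial pool of the same number, but steatosis pool 1 lay just above initial pool 4, so the groups touched. The mean went from 26 ± 8.24 to 15.4 ± 2.76 FPKM (SD, n = 4 pools), on the log2 scale by -0.72 ± 0.21 (SE, limma adjusted p = 0.0318). The call was lost in 5 of the 8 cases in which one library was omitted, namely without initial pools 1 or 2 and without steatosis pools 2, 3 or 4, where the adjusted p lay between 0.0538 and 0.0825. Without initial pool 1 the log2 fold change was -0.53.

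Acetyl-CoA carboxylase commits the carbon. ACACA (gene 397324, chromosome 12, 38580916 to 38875067) encodes the cytosolic form whose malonyl-CoA feeds FASN. It measured 3.1, 2.48, 1.82 and 1.76 FPKM before the diet and 4.28, 5.36, 5.32 and 5.98 FPKM after it. All steatosis pools lay above all initial pools, and the fold between pools of the same number was 1.38, 2.16, 2.92 and 3.4 for pools 1, 2, 3 and 4. The mean of ACACA rose from 2.29 ± 0.631 to 5.24 ± 0.705 FPKM (SD, n = 4 pools), on the log2 scale by 1.19 ± 0.19 (SE, limma adjusted p = 0.00193). Its adjusted p stayed between 0.000786 and 0.00802 over 17 alternatives, but the log2 fold change was 0.92 with scaling by the median ratio, 0.95 with scaling by the upper quartile and 0.93 with a pseudocount of 1, which is under the limit of 1.

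ACACB (gene 100154993, chromosome 14, 41621574 to 41739916) encodes the carboxylase of the outer mitochondrial membrane, whose malonyl-CoA restrains the entry of fatty acids into mitochondria. It was the least abundant of the 10 transcripts, at 0.61, 0.12, 0.15 and 0.35 FPKM before the diet and 0.3, 0.22, 0.23 and 0.43 FPKM after it. The steatosis pools lay inside the range of the initial pools, of which pool 1 was the highest. ACACB reached 0.3 FPKM in exactly 4 libraries and so just passed the filter. Its log2 fold change of 0.09 ± 0.39 (SE, limma adjusted p = 0.88) was smaller than its SE.

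Fatty acid synthase itself, FASN (gene 397561, chromosome 12, 922405 to 937560), measured 19.7, 7.59, 6.21 and 4.55 FPKM before the diet and 8.25, 7.29, 11.2 and 6.96 FPKM after it. The highest value of all 8 libraries was that of initial pool 1, the pool that also held transcripts of skeletal muscle, stomach mucosa and adipocytes. The part of these tissues in the FASN value was not tested. The mean of FASN was 9.51 ± 6.9 FPKM in the initial state and 8.42 ± 1.92 FPKM in steatosis (SD, n = 4 pools), for a log2 fold change of 0.03 ± 0.38 (SE, limma adjusted p = 0.953). Without initial pool 1 the initial mean was 6.12 ± 1.52 FPKM and the log2 fold change 0.46 (adjusted p = 0.132), and the groups still overlapped. With all pools scaled by the median ratio the estimate was -0.23. No direction can be given for FASN from these libraries.

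ELOVL6 (gene 100312970, chromosome 8, 112038670 to 112190079), the elongase that takes palmitate to stearate, was the most abundant of the 10 transcripts in the initial state, at 91.6, 115.2, 101.9 and 113.7 FPKM. In steatosis it measured 77.6, 99, 75 and 54.9 FPKM, below the initial pool of the same number in all 4 pairs. Steatosis pool 2 lay above initial pool 1 and so closed the gap between the groups. The mean went from 105.6 ± 11.098 to 76.6 ± 18 FPKM (SD, n = 4 pools), on the log2 scale by -0.49 ± 0.16 (SE, limma adjusted p = 0.0498), at the edge of the threshold. The call was lost in 6 of the 8 fits without one library, in which the adjusted p lay between 0.076 and 0.11, and held without initial pool 1 (log2 fold change -0.55, adjusted p = 0.044) and without steatosis pool 2.

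SCD (gene 396670, chromosome 14, 111461560 to 111478033), the stearoyl-CoA desaturase that places the double bond of oleate and palmitoleate, moved most. It measured 9.15, 12.3, 6.12 and 3.25 FPKM before the diet and 65.5, 116.1, 140.4 and 58.4 FPKM after it. The lowest steatosis pool lay far above the highest initial pool, and the fold between pools of the same number ran from 7.16 in pool 1 through 9.41 in pool 2 and 18 in pool 4 to 22.9 in pool 3. Mean SCD rose from 7.72 ± 3.91 to 95.1 ± 39.6 FPKM (SD over 4 pools), a 12.3-fold ratio of means and a log2 fold change of 3.67 ± 0.41 (SE, limma adjusted p = 0.000266). SCD ranked 20 of the 13175 tested genes by log2 fold change. Over 17 alternatives its log2 fold change stayed between 3.31 and 3.94, and it was the only one of the 10 genes to pass limma's treat test, which takes a change of 1 on the log2 scale as the null (adjusted p = 0.0079).

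ME1 (gene 397538, chromosome 1, 82799878 to 82989895), the cytosolic malic enzyme that yields NADPH, measured 1.15, 0.76, 0.48 and 0.53 FPKM before the diet and 0.83, 1.18, 1.1 and 1.24 FPKM after it. The groups overlapped through initial pool 1, which lay within the range of the steatosis pools. The log2 fold change was 0.57 ± 0.26 (SE, limma adjusted p = 0.122) with all pools. Without initial pool 1 the remaining pools did not overlap, and the log2 fold change was 0.79 with an adjusted p of 0.0264, but scaling by the median ratio with all pools gave 0.33 (adjusted p = 0.383).

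The 2 regulators among the 10 genes differed from each other. MLXIPL (gene 100170769, chromosome 3, 10898675 to 10934257) encodes ChREBP, the factor that couples sugar to lipogenic and glycolytic genes. It measured 26.9, 35.6, 34.5 and 19.8 FPKM before the diet and 24.6, 34.6, 39.3 and 39.7 FPKM after it. Pools of both groups were interleaved, with a log2 fold change of 0.25 ± 0.21 (SE, limma adjusted p = 0.388), close to the median of all genes, and of -0.019 with scaling by the median ratio.

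THRSP (gene 100512730, chromosome 9, 12479913 to 12484323) encodes Spot 14, a small protein that follows thyroid hormone and carbohydrate and is known to assist lipogenesis. It measured 11.8, 21.4, 23.1 and 16.3 FPKM before the diet and 32.4, 63.6, 83.9 and 59.5 FPKM after it. All steatosis pools were above all initial pools, and the fold between pools of the same number was narrow, at 2.74, 2.97, 3.62 and 3.65. Its mean rose from 18.2 ± 5.12 to 59.8 ± 21.2 FPKM (SD, n = 4 pools), on the log2 scale by 1.68 ± 0.29 (SE, limma adjusted p = 0.00272) and by 1.41 (adjusted p = 0.0097) with scaling by the median ratio. Without steatosis pool 2 its adjusted p was 0.0103, just over the limit of the fold rule. For SCD, THRSP and ACACA alike the exact permutation test of the mean FPKM gave a two-sided p of 0.0286, the smallest that 4 pools against 4 allow.

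**Figure D2:**
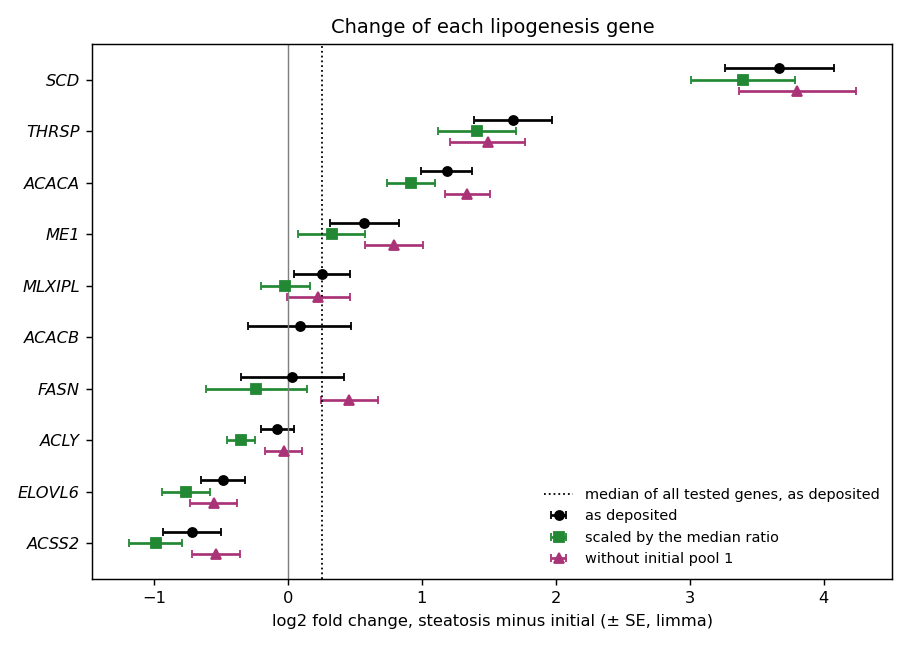
Log2 fold change of each gene (x axis, steatosis minus initial, on log2(FPKM + 0.1), bars are the SE from limma) with FPKM as deposited, with libraries scaled by the median ratio, and without initial pool 1. SCD, THRSP and ACACA stay right of the dotted median of all genes (0.25), ACSS2 and ELOVL6 stay left of 0, and FASN changes side; ACACB has a value as deposited only, since it falls under the filter in the other 2 fits.

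The changes rearranged the order of the transcripts. FPKM is scaled to transcript length, so levels were set side by side between genes. Other differences in how well each gene is measured were not checked, so the order is approximate. In the initial state ELOVL6 (105.6 FPKM on average) led with no overlap with the next gene. MLXIPL, ACSS2 and THRSP followed at means of 29.2, 26 and 18.2 FPKM, and FASN, ACLY and SCD at 9.51, 7.98 and 7.72 FPKM, where each neighbour in the order overlapped with the next. ACACA, ME1 and ACACB came last, the latter pair with overlap. In steatosis SCD took the first place (95.1 FPKM) ahead of ELOVL6 (76.6) and THRSP (59.8), and these neighbours overlapped, as did THRSP and MLXIPL. ACSS2, FASN, ACLY, ACACA, ME1 and ACACB followed, and among these only FASN and ACLY overlapped with each other. As a share of the summed FPKM of the 10 genes, which does not depend on the scaling between libraries, SCD held 4.37%, 5.29%, 3.03% and 1.75% in the initial pools and 27.2%, 33.1%, 37.3% and 23.5% in steatosis. ELOVL6 held between 43.7% and 61.2% in the initial pools and between 20% and 32.2% in steatosis. The shares of a pool add to the whole, so a larger share of SCD makes those of the other genes smaller. A smaller share is therefore no separate evidence of a fall, and the FPKM of ELOVL6 itself overlapped between the groups. The share of THRSP was 8.77% ± 2.39 and 19.5% ± 4.7 (SD, n = 4 pools), that of ACSS2 12.4% ± 3.49 and 5.35% ± 1.93, and that of FASN 4.55% ± 3.26 and 2.82% ± 0.558. The summed level of the 10 genes was 207.5 ± 19.7 FPKM in the initial state and 304 ± 69.4 FPKM in steatosis (SD, n = 4 pools).

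**Figure D3:**
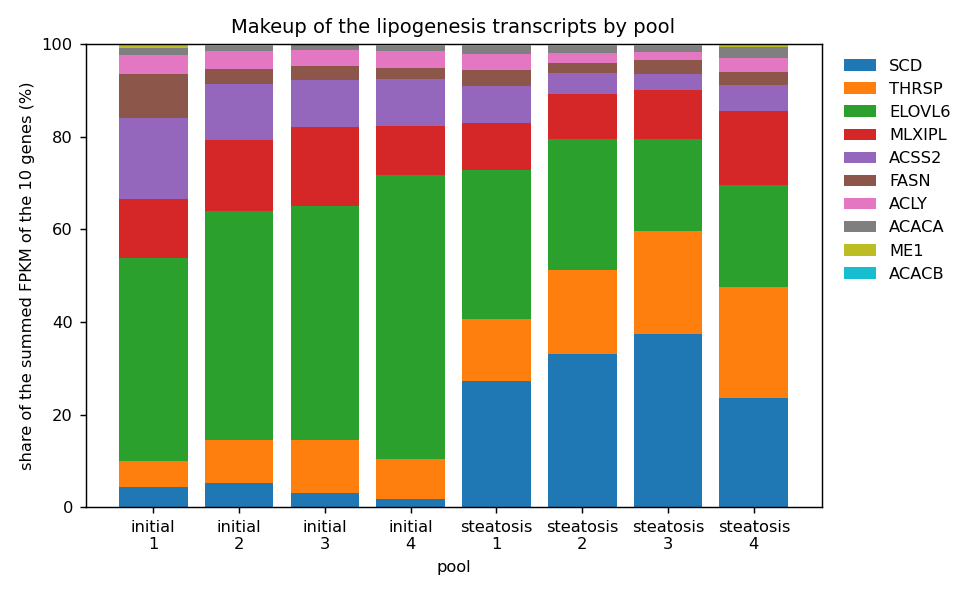
Share of each gene in the summed FPKM of the 10 lipogenesis genes (y axis, percent, each bar adds to the whole) in the 4 initial and 4 steatosis pools. SCD takes at most 5.29% of an initial pool and at least 23.5% of a steatosis pool, while the share of ELOVL6 is larger in every initial pool than in any steatosis pool. Since the shares add to the whole, a larger share of SCD makes the others smaller.

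Ratios of genes within a pool were compared for 4 pairs, as these too do not depend on the scaling between libraries. The ratio of SCD to FASN was 0.464, 1.63, 0.986 and 0.714 in the initial pools and 7.94, 15.9, 12.6 and 8.39 in steatosis, a 12.6-fold difference of the geometric means. There was no overlap (two-sided exact permutation p = 0.0286, and 0.114 after Benjamini-Hochberg adjustment over the 4 ratios, a design in which a single ratio cannot pass 0.05 after adjustment). The ratio of ME1 to ACLY was 0.132, 0.0831, 0.0669 and 0.077 in the initial pools and 0.101, 0.151, 0.163 and 0.17 in steatosis (exact p = 0.0571, adjusted 0.114), and the overlap came from initial pool 1 alone. The carboxylase ratio of ACACA to ACACB was 5.08, 20.7, 12.1 and 5.03 in the initial pools and 14.3, 24.4, 23.1 and 13.9 in steatosis, with overlap (exact p = 0.114, adjusted 0.152). For ELOVL6 to FASN the ratio was 4.65, 15.2, 16.4 and 25 in the initial pools and 9.41, 13.6, 6.71 and 7.89 in steatosis (exact p = 0.371, adjusted 0.371). Initial pool 1 was the lowest of the 8 for ELOVL6 to FASN, and without it the groups did not overlap, with a log2 difference of -1.02 in place of -0.52. Without initial pool 4, the highest of the 8, the difference was -0.21 (exact p = 0.686).

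**Figure D4:**
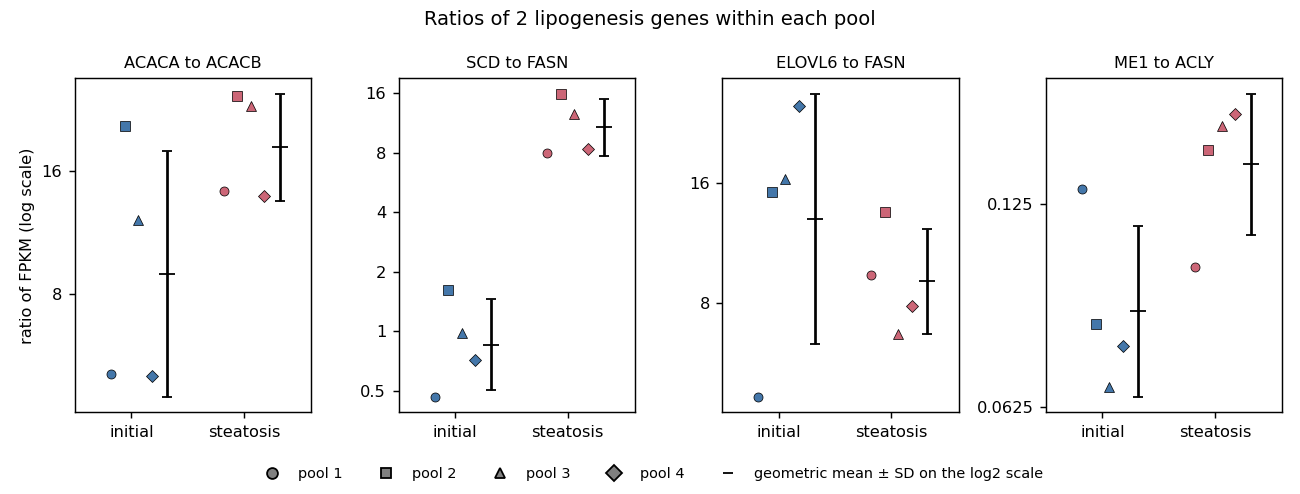
Ratio of FPKM of 2 lipogenesis genes within each pool (y axis, log scale, a separate range for each pair), with a symbol for each pool number and a black mark for the geometric mean and SD on the log2 scale. Only SCD to FASN separates all steatosis pools (7.94 to 15.9) from all initial pools (0.464 to 1.63), and initial pool 1 lies away from the other initial pools for ELOVL6 to FASN and ME1 to ACLY.

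Within a group the genes did not rank the pools alike. In the initial state pool 1 was highest for 5 of the 10 genes (ACACA, ACACB, FASN, ME1 and ACSS2) and lowest for ELOVL6 and THRSP, and pool 4 was lowest for 6 genes. Over the tested genes at large, the median ratio factor of initial pool 4 was also the lowest, at 0.806 beside 0.907 to 0.991 in the other initial pools. Its part in these ranks was not tested. The spread between initial pools was widest for ACACB and FASN (coefficients of variation 73.5% and 72.6%) and narrowest for ELOVL6 (10.5%). In steatosis pool 3 was highest for SCD, THRSP and FASN, pool 4 for ACACA, ACACB, ME1 and MLXIPL, and pool 1 for ACLY and ACSS2. Steatosis pool 1 was lowest for THRSP, ACACA, ME1 and MLXIPL. ACLY, ACACA and FASN lie on the same chromosome (12), many megabases apart, and only ACACA of them was called higher.

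A further 49 genes of the pathway, grouped by role, gave the surroundings of these changes. All were in the table and 47 passed the filter. By the fold rule 5 of the 47 were higher and 0 lower (background 6.01% and 0.334%), and by the rule of adjusted p alone 15 were higher and 3 lower (background 26.7% and 2.28%). With scaling by the median ratio, 1 gene was higher and 2 lower by the fold rule (background 3.11% and 0.641%), and 8 were higher and 4 lower, with KHK added, by adjusted p (11.6% and 9.85%). The median log2 fold change of the 47 genes was 0.24, beside 0.25 over all tested genes.

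Among the 14 genes of transcription and sterol sensing, SREBF1, which encodes SREBP-1, had the strongest rise. It measured 5.43, 11.4, 9.57 and 4.8 FPKM before the diet and 14.9, 23, 37.4 and 25.6 FPKM after it, with no overlap. Its log2 fold change was 1.7 ± 0.33 (SE, limma adjusted p = 0.00454), and it was 1.43 (adjusted p = 0.0112) with scaling by the median ratio, outside the fold rule. The same held in 5 of the 8 cases with one library omitted (initial pools 1 or 4 and steatosis pools 2, 3 or 4, adjusted p from 0.0108 to 0.015). NR1H3, the LXR alpha receptor of oxysterols, rose from 65.9 ± 7.31 to 95.5 ± 2.21 FPKM (SD, n = 4 pools; log2 fold change 0.54, adjusted p = 0.00294 from limma), but its log2 fold change was 0.27 with an adjusted p of 0.0784 after scaling by the median ratio. RXRA and USF1 also passed as deposited (log2 fold changes 0.37 and 0.43) and did not with that scaling. MLX, the partner of ChREBP, had a log2 fold change of 0.1 (adjusted p = 0.5).

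INSIG1 went the other way. It encodes the anchor that holds SREBP in the endoplasmic reticulum and is itself an SREBP target. It measured 222.1, 74.6, 86.7 and 42.8 FPKM before the diet and 47.7, 20.8, 22.7 and 19.7 FPKM after it, with overlap between steatosis pool 1 and initial pool 4. Its log2 fold change was -1.77 ± 0.46 (SE, limma adjusted p = 0.0175), and with the pool number as a block it also passed the fold rule (adjusted p = 0.000636). Without steatosis pool 4 the looser rule was missed (-1.64, adjusted p = 0.0504). The sterol synthesis genes driven by SREBP-2 were lower as well. Of 5 measured, 4 fell by the fold rule (log2 fold changes from -4.15 to -1.98), HMGCS1, FDPS and SQLE among them, where 0.334% of all tested genes did. With one library omitted, HMGCS1 and SQLE were outside the fold rule in 7 of the 8 cases, all but that of steatosis pool 1, with adjusted p values from 0.0104 to 0.0288. FDPS was outside it in 5 of the 8 (initial pools 2 or 4 and steatosis pools 2, 3 or 4), with adjusted p values from 0.0102 to 0.0131. In HMGCS1, FDPS, SQLE and INSIG1, steatosis pool 1 was the highest steatosis pool.

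In the supply of carbon and NADPH, 5 of 8 genes were higher and 2 lower by adjusted p, beside 26.7% and 2.28% of all tested genes. PGD, the phosphogluconate dehydrogenase of the pentose phosphate pathway, measured 16, 15.1, 14.7 and 14.2 FPKM before the diet and 30.2, 34.7, 29.8 and 29.1 FPKM after it. Its mean rose from 15 ± 0.744 to 30.9 ± 2.52 FPKM (SD, n = 4 pools; log2 fold change 1.04, limma adjusted p = 7.46e-05). It kept an adjusted p under 0.01 with scaling by the median ratio, at a log2 fold change of 0.77, under the limit of the fold rule, and was also under it without steatosis pool 2 (0.98). TKT, TALDO1 and the citrate synthase CS were higher by 0.72, 0.49 and 0.53 on the log2 scale, and of these only TKT passed with that scaling. The mitochondrial citrate carrier SLC25A1, which exports the substrate of ACLY, fell from 130 ± 21.6 to 73.2 ± 12.8 FPKM, on the log2 scale by -0.83 ± 0.15 (SE, limma adjusted p = 0.00378). The cytosolic isocitrate dehydrogenase IDH1, another source of NADPH, fell from 214.2 ± 12.4 to 127.2 ± 16.5 FPKM (log2 fold change -0.76, adjusted p = 0.001). For both, the pools of the groups did not overlap, and the log2 fold changes were -1.1 and -1.03 with scaling by the median ratio.

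By adjusted p, 2 of the 7 tested cofactors and brakes, 1 of 10 related enzymes and 3 of 8 other targets were higher and 0 lower, beside 26.7% and 2.28% of all tested genes. MID1IP1, which is related to THRSP and promotes the assembly of acetyl-CoA carboxylase, rose from 4.69 ± 0.755 to 8.67 ± 0.581 FPKM (SD, n = 4 pools; log2 fold change 0.89, SE 0.13, adjusted p = 0.00119 from limma). STK11, the kinase above AMPK, was the other of the cofactors and brakes to pass (0.41, adjusted p = 0.0233). It did not pass with scaling by the median ratio (0.14, adjusted p = 0.326) or without initial pool 3, steatosis pool 1 or steatosis pool 4 (adjusted p from 0.0501 to 0.076). The related enzyme that passed was ACSS1, the mitochondrial counterpart of ACSS2, with 1.64, 1.29, 1.18 and 1.18 FPKM before the diet and 3, 2.54, 2.65 and 2.69 FPKM after it (log2 fold change 1, adjusted p = 0.00105), so that this gene was higher while ACSS2 was lower. Among the other known targets of ChREBP or SREBP-1c, GPAM, the acyltransferase that starts triglyceride synthesis, had a log2 fold change of 1.15 (adjusted p = 0.00884), with groups that overlapped. It was outside the fold rule with scaling by the median ratio (0.88, adjusted p = 0.0372) and in 6 of the 8 cases with one library omitted (initial pools 1, 3 or 4 and steatosis pools 2, 3 or 4, adjusted p from 0.0194 to 0.028). The liver pyruvate kinase PKLR passed by adjusted p (0.63, adjusted p = 0.0287) and missed it with scaling by the median ratio (0.36, adjusted p = 0.186) and without initial pools 1 or 4 or steatosis pools 2, 3 or 4 (adjusted p from 0.057 to 0.0682). PNPLA3 measured between 0.16 and 0.79 FPKM before the diet and between 0.19 and 1.53 FPKM after it and did not pass (0.44, adjusted p = 0.568).

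**Figure D5:**
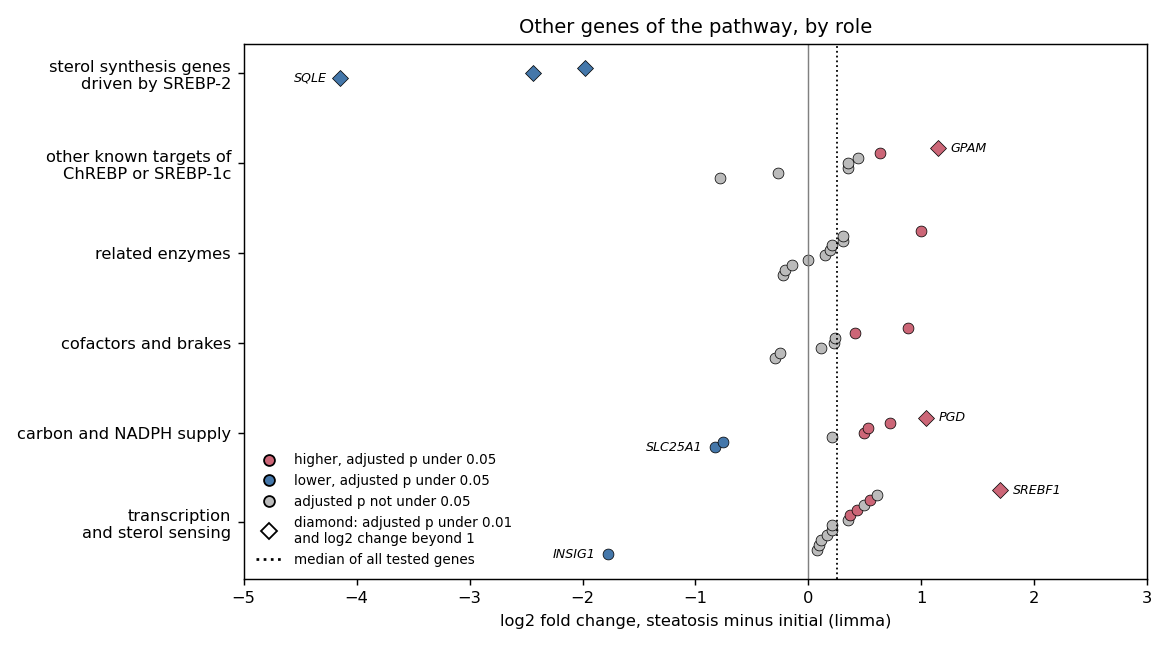
Log2 fold change (x axis, steatosis minus initial, on log2(FPKM + 0.1)) of other genes of the pathway and of sterol synthesis, in rows by role, with colour for an adjusted p under 0.05 and diamonds for the fold rule. SREBF1, GPAM and PGD are the diamonds on the right of the dotted median of all genes, and the sterol genes and INSIG1 lie on the left.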

How the data were processed

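Poly-A RNA from 8 pools (4 per group, 2 pigs each) was sequenced by the authors. The labels list HISAT2 2.0.4, Bowtie2 2.2.5 and RSEM 1.2.12, and the paper gives the genome as Sus scrofa 11.1. FPKM values were deposited by the authors to 0.01, normalized for transcript length and mapped reads, with no stated scaling between libraries. The files also hold the authors' fold changes and FDR for pairs of libraries, which were not used. Gene IDs were matched to RefSeq genes of Sscrofa11.1 for coordinates (10 of 10). A gene was tested if 4 or more libraries reached 0.3 FPKM. The test was limma 3.58.1 (R 4.3.3), applied to log2(FPKM + 0.1), with the group as the only term and the variance prior following the mean level. Python 3.11.15, numpy 2.4.6, pandas 2.3.3, scipy 1.17.1 and matplotlib 3.10.9 served for the rest. Read numbers were not used, so counting error was not modelled apart from the SD between pools.

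The members, gene lists and limits were chosen with earlier results of these data known. Named were the 10 genes, companions past either rule, and SREBF1, NR1H3, MLX, INSIG1, SLC25A1, MID1IP1, PKLR and PNPLA3 whatever their value, with sterol genes as counts and range and markers by list. Some genes of the lists are counted but not reported here by name or plotted. Genes named beyond this rule were chosen after their values were seen. IDI1 and MB of the lists were not analysed here. In simulated data of 13175 genes with 200 changed, 196 of the 200 passed the filter. The fit found 94.9% of these 196 with the right sign and made 1 false call. This share was not split by the size of the fold change. Power at the fold changes of the 10 lipogenesis genes was not tested. The reported p values are unpaired. The replicate block, an alternative, treated pools of the same number as pairs, since both groups are the same animals and deviations from the group means correlated at 0.16, 0.35, 0.32 and 0.25 for pools 1, 2, 3 and 4. The study does not state the pairing. Alternatives were other scalings, filters and pseudocounts, the treat test and each library left out.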

Additional observations from a re-analysis of the deposited data

Results flagged for a closer look

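In steatosis pool 1, 4 genes stood far above the other steatosis pools. INSIG1 measured 47.7 FPKM beside at most 22.7 FPKM, HMGCS1 20.5 FPKM beside at most 3.88 FPKM, FDPS 46.2 FPKM beside at most 16.6 FPKM, and SQLE 17.4 FPKM beside at most 2.01 FPKM. The gap to the next pool was 0.894, 0.956, 0.87 and 0.904 of the range of the 4 pools, above Dixon's 95% critical value for 4 samples. SQLE was also far lower in initial pool 3, at 24.3 FPKM, than in the next initial pool at 37.6 FPKM (0.945 of the range). Of 86 groups of 4 pools examined these were 5, and chance marks about 1 in 20. Those of steatosis pool 1 share a library, so they are not independent of each other. None of the 10 lipogenesis genes was among the 5. The sterol genes were added to this screen after their values were seen.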

How the results depend on the processing

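SCD, THRSP and ACACA kept their direction and an adjusted p under 0.05 in 17 alternatives, the treat test aside. The 3 higher genes by the fold rule were 1 (SCD) under the treat test and from 2 to 3 when each library was left out, and the 0 lower genes stayed 0. The 2 lower genes by adjusted p were 1 with a common sum, 1 with no filter, 1 with a pseudocount of 0.01, 3 with the median ratio, and from 0 to 1 without one library. Of the companions by the fold rule, the 5 higher genes became 1 with a common upper quartile, 1 with the median ratio, 3 with a pseudocount of 1, from 2 to 5 without one library (2 without initial pool 4, 3 without steatosis pool 2 and 3 without steatosis pool 4), and 0 with the median ratio without initial pool 1, an alternative chosen after seeing the data. The 0 lower ones became 2 with a common upper quartile, 2 with the median ratio, 1 with the replicate block, from 0 to 1 without one library and 2 with the added alternative. By adjusted p, the 15 higher companions became 9 with a common upper quartile, 8 with the median ratio and 7 with the added alternative, where the 3 lower became 5. Among the 10 genes, signs turned for 3 that passed in no alternative. FASN was at -0.20 with a common upper quartile, -0.23 with the median ratio and from -0.24 to 0.46 without one library, ACACB at -0.0013 with a pseudocount of 1 and from -0.15 to 0.18 without one library, and MLXIPL at -0.019 with the median ratio and -0.044 with the added alternative. The cause was not tested. With the pool number as a replicate block the calls of the 10 genes did not change (adjusted p of ACACA 0.0069, of ACSS2 0.0046), and the paired test of a ratio cannot go below 0.125. Over all genes, 792 higher and 44 lower by the fold rule became 434 and 76 with a common upper quartile, 408 and 84 with the median ratio, 395 and 39 with a pseudocount of 1, and 68 and 1 with the treat test, and by adjusted p 3519 and 300 became 1653 and 1073, and 1521 and 1290, with both scalings. Levels under 1 FPKM, as in ACACB, are the least precise.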

Other observations

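Mitochondria hold a separate fatty acid synthesis of bacterial type, and none of its 4 genes in the list passed by adjusted p from limma with FPKM as deposited. OXSM, the condensing enzyme, measured 14 ± 2.03 FPKM in the initial state and 13.9 ± 0.592 FPKM in steatosis (SD, n = 4 pools). MCAT, MECR and CBR4 had log2 fold changes of -0.22, 0.3 and -0.15. OXSM was lower by adjusted p with scaling by the median ratio without initial pool 1, an alternative chosen after seeing the data, and MECR was higher without initial pool 4 (0.38, adjusted p = 0.0471). OLAH, the thioesterase that ends chains early at FASN in milk-making tissue, stayed under the filter. It was listed at 0, 0.03, 0.03 and 0.05 FPKM in the initial pools and at 0.03, 0.2, 0.2 and 0.26 FPKM in steatosis, with overlap through steatosis pool 1. With no filter it was higher by adjusted p (adjusted p = 0.0478).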
